A study of Homo sapiens with 3 samples.

Results

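hsa-miR-192-5p, hsa-miR-215-5p and hsa-miR-194-5p (below without the species prefix), 3 of the 2588 mature miRNAs counted in each library, are the 5p arms of a pair of duplicated gene clusters, MIR192 with MIR194-2 on chromosome 11 and MIR215 with MIR194-1 on chromosome 1. They were taken by name from the count files of all 3 libraries. The study exposed SK-MEL-2 cells, a human melanoma line grown in medium with serum, to a jet of nonthermal plasma, which is partly ionised gas, and asked how it suppresses melanoma cell growth. The groups were cells with no treatment (control), cells exposed for 3 min and cells exposed for 5 min. All were collected on Day 2, and each group was 1 library. Groups were thus unreplicated, and no test could be made. Intervals below are exact 95% intervals for counting error only, and each ratio compares libraries, not conditions. Library totals ran from 615645 to 1045482 counts, lowest after 5 min. SK-MEL-2 is 1 tumour-derived line, and whether the libraries came from separate cultures is not given in the sources used here.

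miR-192 and miR-215 share a seed, the stretch of a miRNA that pairs with its target mRNAs, and have been shown in other cancer cells to slow the cell cycle and to raise CDKN1A. In normal tissue miR-192, miR-215 and miR-194 are best known from the epithelia of gut, liver and kidney.

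The mature sequences show why the values of miR-192-5p and miR-215-5p must be read together. Capitals mark the seed, bases 2 to 8, and the sequences are RefSeq's on GRCh38.p14.
miR-192-5p: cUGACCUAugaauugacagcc
miR-215-5p: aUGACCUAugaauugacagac
miR-194-5p: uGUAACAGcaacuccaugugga
miR-192-5p and miR-215-5p were identical at 19 of 21 bases. Counted from the 5′ end of miR-192-5p, they differed by C1A and C20A, so 18 bases in a row were shared. How the authors assigned reads that fit both is not given in the sources used here, and the separate values of this pair are therefore uncertain. Of 2370 RefSeq mature human miRNAs, only these 2 had the seed UGACCUA, and miR-194-5p alone had GUAACAG. miR-194-5p is released in the same form from a hairpin of each cluster, so its count cannot be divided between chromosomes 1 and 11.

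The 4 hairpin sequences place each 5p arm (capitals) within its cluster.
MIR192: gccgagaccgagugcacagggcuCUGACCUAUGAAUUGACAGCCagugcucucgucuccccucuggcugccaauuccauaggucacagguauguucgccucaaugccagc
MIR194-2: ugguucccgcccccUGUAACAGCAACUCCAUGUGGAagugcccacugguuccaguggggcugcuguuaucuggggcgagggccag
MIR215: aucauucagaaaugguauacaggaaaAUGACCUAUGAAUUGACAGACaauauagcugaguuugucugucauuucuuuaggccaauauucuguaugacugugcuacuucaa
MIR194-1: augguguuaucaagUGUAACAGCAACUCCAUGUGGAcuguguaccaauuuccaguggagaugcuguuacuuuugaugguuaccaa
MIR192 (chr11:64891137-64891246) and MIR194-2 (chr11:64891355-64891439) lie on the minus strand with 108 bases between them. Both are inside one exon of the long non-coding RNA gene MIR194-2HG in GENCODE release 29. MIR215 (chr1:220117853-220117962) and MIR194-1 (chr1:220118157-220118241) also lie on the minus strand, 194 bases apart. They are inside an intron of IARS2, a mitochondrial isoleucyl-tRNA synthetase gene that is read from the opposite strand, and no other annotated gene overlaps them.

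miR-192-5p was the most abundant of the 3 in every library. The control library held 73 counts of hsa-miR-192-5p, the 3 min library 75 and the 5 min library 94. Scaled by TMM, which sets the libraries to a common size, these were 69.8 CPM (54.7 to 87.8), 78.3 CPM (61.6 to 98.1) and 151 CPM (122 to 185). The control and 3 min intervals overlapped, and the 5 min interval lay above both. miR-192-5p was 2.17-fold higher after 5 min than in control (1.58 to 2.99) and 1.94-fold higher than after 3 min (1.41 to 2.66). After 3 min it was 1.12-fold control, and the interval of 0.801 to 1.57 included 1.

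miR-194-5p, the arm made by both clusters, had 34 counts with no plasma, 38 with 3 min and 53 with 5 min. Its levels were 32.5 CPM (22.5 to 45.4), 39.7 CPM (28.1 to 54.4) and 85.4 CPM (64.0 to 112). As for miR-192-5p, only the 5 min interval stood clear of the other 2. The 5 min level was 2.63-fold control (1.68 to 4.17) and 2.15-fold the 3 min level (1.39 to 3.36). The 3 min level was 1.22-fold control, and the interval of 0.748 to 2.00, for counting error only, included 1.

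miR-215-5p was the scarcest, with 8 counts in untreated cells, 17 with 3 min of plasma and 42 with 5 min. Its levels were 7.65 CPM (3.30 to 15.1), 17.7 CPM (10.3 to 28.4) and 67.7 CPM (48.8 to 91.5). The control and 3 min intervals overlapped, and the 5 min interval lay above both. It was 8.85-fold higher after 5 min than in control, with a wide interval of 4.10 to 21.8 because the control rested on 8 counts. Against 3 min plasma the 5 min level was 3.81-fold higher (2.13 to 7.15). After 3 min it was 2.32-fold control, with an interval of 0.948 to 6.21 that included 1.

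**Figure D1:**
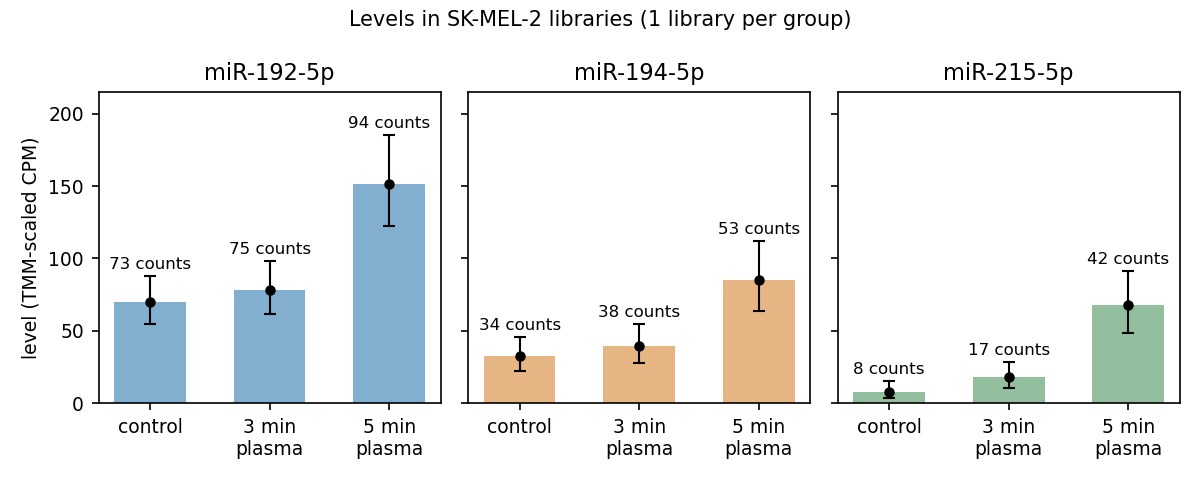
Levels of miR-192-5p (left), miR-194-5p (middle) and miR-215-5p (right) in TMM-scaled CPM (y axis) in the control, 3 min and 5 min plasma libraries (x axis), 1 library each; bars and points are the level, whiskers the exact 95% Poisson interval, and the raw count stands above each. The 5 min levels of 151, 85.4 and 67.7 CPM lie clear of the intervals of the other 2 libraries, whose own intervals overlap.

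Had the control level held, the 5 min library would have contained 43.3 counts of miR-192-5p, 20.2 of miR-194-5p and 4.75 of miR-215-5p. It contained 94, 53 and 42, an excess of 50.7, 32.8 and 37.3 counts. The excess of miR-215-5p, the scarcest, thus lay between those of miR-192-5p and miR-194-5p. The 3 min library was above the scaled control by 8.11, 6.84 and 9.67 counts.

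miR-192-5p had the highest level, miR-194-5p the next and miR-215-5p the lowest in all 3 libraries. The 3 are 21 or 22 bases long, so length adds little to this order, but adapter ligation favours some RNA ends and the levels are not molar amounts. In the control the counting intervals of the 3 levels did not overlap. Those of miR-194-5p and miR-215-5p just overlapped after 3 min and overlapped widely after 5 min, at 85.4 and 67.7 CPM, while the interval of miR-192-5p stayed above both. Among all 2588 listed miRNAs, miR-192-5p ranked 151st by counts in the control, 152nd after 3 min and 121st after 5 min. miR-194-5p ranked 197th, 191st and 157th, and miR-215-5p 291st, 243rd and 167th. Together the 3 made up 0.0110% of the untreated library (0.00908 to 0.0132), 0.0134% of the 3 min library (0.0112 to 0.0160) and 0.0307% of the 5 min library (0.0265 to 0.0354). They were minor components of each library.

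The sum of miR-192-5p and miR-215-5p does not depend on which of the pair a shared read was given to, provided that each read was counted once. It came to 81 counts without plasma, 92 with 3 min and 136 with 5 min. Scaled, this was 2.83-fold higher after 5 min than in control (2.13 to 3.77), 2.28-fold higher than after 3 min (1.74 to 3.01), and 1.24-fold control after 3 min (0.909 to 1.69). All 3 miRNAs together had 115, 130 and 189 counts in the same order of libraries. Their 5 min sum was 2.77-fold control (2.18 to 3.52) and 2.24-fold the 3 min sum (1.79 to 2.83). The 3 min sum was 1.23-fold control, and its interval of 0.952 to 1.60, for counting error only, included 1.

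The balance between the clusters' own arms differed among the libraries. miR-215-5p, from chromosome 1, made up 8 of the 81 counts it shared with miR-192-5p in the control, 9.88% (exact binomial 95% interval 4.36 to 18.5). It made up 17 of 92 after 3 min, 18.5% (11.1 to 27.9), and 42 of 136 after 5 min, 30.9% (23.2 to 39.4). The 5 min and control intervals did not overlap, and the 3 min interval overlapped both. The odds of a count being miR-215-5p rather than miR-192-5p were 4.05 times as high after 5 min as in control (exact interval 1.74 to 10.6), 1.97 times as high after 5 min as after 3 min (1.001 to 3.99) and 2.06 times as high after 3 min as in control (0.784 to 5.87). These ratios use no scaling between libraries, but they do depend on how near-identical reads were assigned.

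miR-194-5p kept a near-constant share of the 3. It took 34 of 115 counts in the control, 29.6% (21.4 to 38.8), 38 of 130 after 3 min, 29.2% (21.6 to 37.8), and 53 of 189 after 5 min, 28.0% (21.8 to 35.0). Its odds against the summed counts of miR-192-5p and miR-215-5p after 5 min were 0.929 times those in control, with an interval of 0.541 to 1.61 that leaves room for a difference of either sign. miR-194-5p at 2.63-fold control and the summed miR-192-5p and miR-215-5p at 2.83-fold thus lay within each other's intervals after 5 min, while the split within that sum differed between the 5 min and control libraries beyond counting error.

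**Figure D2:**
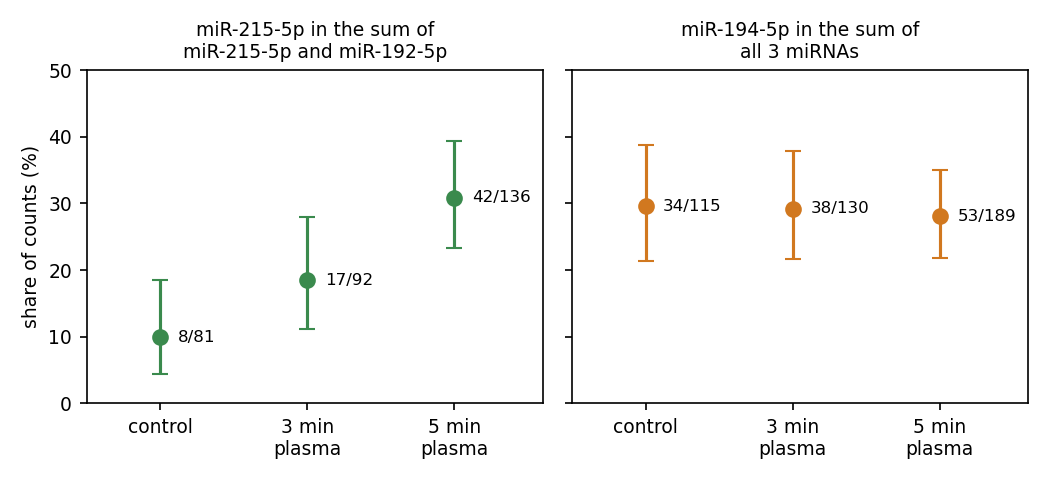
Share of counts in percent (y axis) that were miR-215-5p among miR-215-5p plus miR-192-5p (left panel) and miR-194-5p among all 3 miRNAs (right panel), in the control, 3 min and 5 min plasma libraries (x axis), with exact binomial 95% intervals and the counts beside each point. The miR-215-5p share was 9.88%, 18.5% and 30.9%, and the miR-194-5p share 29.6%, 29.2% and 28.0%.

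The passenger side, read for MIR192, MIR215 and MIR194-2, was almost silent. No 3p arm of MIR194-1 was among the arms read. miR-192-3p and miR-215-3p were at 0 in all 3 libraries, and miR-194-3p, from MIR194-2, had 2 counts in the control and 0 after either exposure. The floor for a count of 0 was set at 3 counts, which is 2.87 CPM in the control, 3.13 CPM after 3 min and 4.84 CPM after 5 min. It is a fixed value, lower than the upper end of the Poisson interval used for the levels. The higher 5p levels after 5 min were therefore not matched by a level above this floor in any of the 3p arms read. Of the other hairpins within 20 kb of MIR192, the 4 listed arms of MIR6750 and MIR6749 had 1 count in all, for miR-6749-3p after 5 min. RefSeq placed no other hairpin within 20 kb of MIR215.

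The 3 were set against the 231 miRNAs that averaged 20 counts or more across the libraries. Their means were 80.7 counts for miR-192-5p, 41.7 for miR-194-5p and 22.3 for miR-215-5p. miR-215-5p passed this filter only through its 5 min library, having 8 and 17 counts in the control and 3 min libraries, so its passing already required a difference. A ratio of 2-fold or more was counted. After 5 min against control, 9.52% of the 231 miRNAs were at least 2-fold higher (22 miRNAs), and 15.0% of the 100 with means of 20 to 100 counts. All 3 of the miRNAs described here were among the 22. After 3 min against control, 2.16% were at least 2-fold higher, with miR-215-5p the only one of the 3 among them. Between 5 and 3 min, 6.49% were at least 2-fold higher after 5 min, with miR-194-5p and miR-215-5p among them and miR-192-5p just short at 1.94-fold. Under TMM and DESeq2 size factors over all listed miRNAs, miR-194-5p was also short of 2-fold in this comparison, at 1.99-fold and 1.96-fold. All 3 were above control after 3 min and higher still after 5 min, as were 34.2% of the 231. Because the 3 share sequence, hairpin clusters and libraries, and were chosen with earlier results known, these counts describe them and are no test.

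By rank of the log2 ratio, miR-215-5p stood 6th highest of the 231 after 5 min against control, miR-194-5p 16th and miR-192-5p 20th. After 3 min they stood 5th, 49th and 76th, and for 5 min against 3 min 4th, 15th and 16th. As miR-215-5p passed the filter only through its 5 min library, its high 5 min ranks and ratios among the 231 were partly fixed by the filter. The 3 log2 ratios had a median of 1.39 after 5 min, beside 0.05 over all 231, and of 0.29 after 3 min, also beside 0.05. Relative to the median of all 231, the 5 min log2 ratios were 1.07 for miR-192-5p, 1.35 for miR-194-5p and 3.10 for miR-215-5p. These differences do not depend on the scaling, by construction, since a scaling shifts every log2 ratio by the same amount. TMM and DESeq2 size factors computed over all listed miRNAs put the median 5 min log2 ratio at -0.12 and -0.16, in place of 0.05, and under both of them miR-192-5p was below 2-fold after 5 min, at 1.93-fold and 1.88-fold. All 3 were at least 1.5-fold higher after 5 min under each of the 6, where 17.3% of the 231 were in the main scaling.

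**Figure D3:**
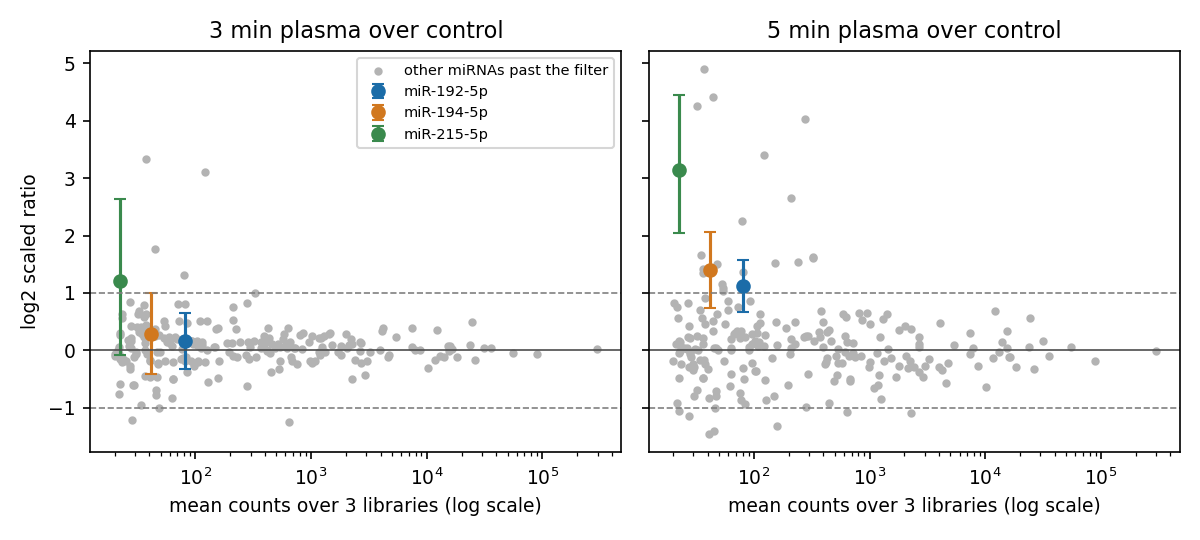
Log2 scaled ratio of 3 min plasma over control (left) and 5 min plasma over control (right) on the y axis against mean counts over the 3 libraries (x axis, log scale) for the 231 miRNAs past the filter; coloured points are miR-192-5p (blue), miR-194-5p (orange) and miR-215-5p (green) with exact 95% intervals, and dashed lines mark 2-fold. All 3 are above the upper line after 5 min, at 1.12, 1.39 and 3.15, and miR-215-5p alone is above it after 3 min.

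The miRNAs whose pattern over the 3 libraries was most like that of the 3 summed were found by Euclidean distance between pairs of log2 ratios (3 min and 5 min, each against control). The 5 nearest of the other 228 past the filter were miR-663a, miR-7641, miR-6087, miR-1290 and miR-589-5p, at distances of 0.05 to 0.20. Counts of miR-663a were 38, 42 and 64 by increasing exposure, against 115, 130 and 189 for the 3 together. miR-7641 had 117, 138 and 199. The 5 had 5 min ratios of 2.84 to 3.18 and 3 min ratios of 1.11 to 1.29. Both ratios share the control library, so likeness over 3 libraries is a description only.

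Markers of other cell types were read beside these results, since the 3 are epithelial miRNAs in normal tissue. Of 8 epithelial markers, 6 had a count in some library, none passed the filter, and miR-205-5p and miR-375 were at 0 in all 3. Their summed counts were 16 with no plasma, 29 with 3 min and 44 with 5 min. The sum was 4.63 times control after 5 min (2.56 to 8.80) and 1.98 times control with 3 min (1.04 to 3.90), so it moved in the same direction as the 3. As none of these markers passed the filter, the 231 give no background for this sum. The control library had a count for 639 miRNAs, the 3 min library for 663 and the 5 min library, which had the lowest total, for 708. The sum rested mainly on miR-200b-3p, with 6, 13 and 20 counts, and miR-200c-3p, with 6, 8 and 17, which keep epithelial identity by repressing ZEB1. Of the rest with a count, miR-203a-3p had 1, 5 and 4, miR-200a-3p 2, 2 and 2, miR-141-3p 1, 0 and 1, and miR-429 0, 1 and 0. The part of these markers in the result was not tested. In bulk RNA, more cells of a type and more of the miRNA per cell cannot be told apart.

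Markers of liver, another tissue rich in miR-192 and miR-194, lay near control. Of 3 such markers, miR-885-5p and miR-802 were at 0 in all libraries, and miR-122-5p had 114, 117 and 76 counts, 1.12-fold control after 5 min (0.829 to 1.51). The 6 blood markers summed to 15, 20 and 13 counts, 1.46-fold control after 5 min (0.639 to 3.29), with miR-223-3p at 0 throughout. The 6 muscle markers summed to 15, 17 and 28 counts, 3.15-fold control after 5 min (1.62 to 6.34). miR-1-3p accounted for 0, 3 and 15 of these and miR-499a-5p for 14, 14 and 13. miR-133a-3p had 1, 0 and 0 counts, and miR-133b, miR-206 and miR-208b-3p were at 0 in every library. None of the blood or muscle markers passed the filter, and the part of the muscle sum in the result was not tested. Of 10 melanocyte and melanoma miRNAs, 5 were detected. The pigment-cell miRNAs miR-204-5p and miR-211-5p had 2608 and 128 counts in the control, whereas the 5 listed from the miR-506 to miR-514 cluster were at 0 in every library. The list summed to 1.32-fold control after 5 min (1.30 to 1.35), with members on both sides. Most of this sum was miR-221-3p, with 23127 of the 31920 control counts and 20382 of the 25062 after 5 min. The median log2 ratio of the 5 detected was -0.22 after 5 min. miR-221-3p was 1.48-fold control (1.46 to 1.51) and miR-146a-5p 1.46-fold (1.34 to 1.58). Below control were miR-222-3p at 0.789 of it (0.750 to 0.830), miR-204-5p at 0.812 (0.759 to 0.869) and miR-211-5p at 0.856, whose interval of 0.625 to 1.16 included 1.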

How the data were processed

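Small RNA from 3 SK-MEL-2 libraries was analysed. Per the labels' protocols, Trizol was used for extraction and a NEBNext small-RNA kit for library construction. Each deposited file holds raw counts, in whole numbers, for the mature miRNAs of 1 library. The submitters' processing notes name Bowtie2, bedtools and edgeR. Not given in the sources used here were their roles, the genome build, the miRNA annotation, trimming, strand and the handling of reads that fit several miRNAs. Without molecular identifiers, PCR copies of 1 molecule count more than once.

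Libraries were scaled by TMM (edgeR 4.0.16, R 4.3.3) over the 231 miRNAs averaging 20 counts or more; the factors were 1, 0.991 and 1.009 for control, 3 min and 5 min. Alternatives were library totals, totals without the 10 most abundant miRNAs, TMM over all listed miRNAs, and size factors from DESeq2 1.42.0 over the filtered and over all listed miRNAs. Ratios carry Clopper-Pearson 95% intervals from the binomial split of the counts, levels exact Poisson intervals, and odds ratios conditional exact intervals (scipy 1.17.1). Intervals and floors (3 counts) cover counting error only. The ratio step was run on simulated Poisson counts with known folds. These held counting error only and were scaled by library totals, so variation between cultures or preparations was not covered.

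Named miRNAs were the 3 members, the other arms of their hairpins, other miRNAs sharing a member's seed, and the 5 nearest patterns. Marker miRNAs were named from their lists with values in view. The members and lists were chosen with earlier results of these data known. RefSeq sequences matched 2281 of the 2588 listed miRNAs by name. A comparison with a further list of miRNAs and a promoter search are not reported here.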

Additional observations from a re-analysis of the deposited data

How the results depend on the processing

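Under the 5 alternative scalings, all 75 recomputed ratios of the 3 miRNAs and their sums lay within the counting interval of the main value, and all stayed above 1. Each scaling moved every ratio of a comparison by the same factor, so the 75 are not separate checks. The 5 min ratio over control ranged from 1.88 to 2.19 for miR-192-5p, 2.27 to 2.65 for miR-194-5p and 7.65 to 8.92 for miR-215-5p. Under TMM or DESeq2 size factors over all listed miRNAs, miR-192-5p fell short of 2-fold after 5 min, and miR-194-5p fell short of 2-fold for 5 min against 3 min, at 1.96 at the lowest. The main scaling had 22 miRNAs at least 2-fold higher and 8 lower after 5 min. Those 2 alternatives each gave 18 higher ones, with 16 and 17 lower ones, in that order. A minimum mean of 10 counts gave 44 higher and 16 lower, and one of 50 counts gave 13 and 3. After 3 min, the main 5 higher and 2 lower became 13 and 5 at a minimum of 10 counts and 2 and 1 at 50. Those 2 scalings each kept 5 higher and gave 4 lower. For 5 min against 3 min, the main 15 higher and 2 lower became 35 and 8 at a minimum of 10 counts and 5 and 0 at 50. DESeq2 and TMM over all listed miRNAs each gave 14 higher, with 5 and 4 lower, in that order. A different minimum also changes how many miRNAs were compared, so these counts are not shares of the same set. Depth limits miR-215-5p most, with 8 control counts. No paired analysis was possible because each group had 1 library, and no replicate could be left out.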
